A study of Mus musculus with 2 samples.

Results

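The Hox genes are the homeobox genes of the HoxA, HoxB, HoxC and HoxD clusters, and every gene whose symbol is Hox, a cluster letter and a number was taken, which gave 39 of the 32285 genes listed. Of these, 11 lie in HoxA, 10 in HoxB, 9 in HoxC and 9 in HoxD. Their transcripts were read in single cells of the esophagus of E18.5 mouse embryos (days of development), strain C57BL/6, in 1 library labelled p63-KO and 1 labelled wild type. The p63-KO library has the genotype p63-CreER/p63-CreER, with 2 copies of the targeted p63 allele, and its littermate control, called wild type, has the genotype p63-CreER and so carries that allele too. p63 is the transcription factor on which stratified epithelia depend. The muscle layer was pulled off by hand before the epithelium was taken apart with dispase and trypsin, so stromal cells are those left on the epithelium.

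Hox proteins bind DNA and give cells their position along the body axis. Within each cluster, genes at the low-numbered end are switched on first and reach farthest towards the head, and genes at the high-numbered end are confined to the trunk and tail. Genes with the same number in different clusters descend from 1 ancestral gene and form a paralog group. In the gut tube, the esophagus is part of the foregut, where low-numbered Hox genes are expressed, most of them known from its mesenchyme and enteric nerves.

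The values are counts of unique molecular identifiers (UMIs), each of which marks 1 captured 3' end of a transcript. After filters on genes, UMIs and mitochondrial share, and the removal of likely doublets, 2375 p63-KO cells and 5519 wild-type cells remained, with medians of 19453 UMIs and 10928 UMIs, and 5 barcodes were shared by the libraries. Cells were clustered and given a class from marker genes, written "-like", with the Hox genes kept out of the clustering. The p63-KO library gave 1686 epithelial-like, 509 fibroblast-like, 75 smooth muscle or pericyte-like, 69 endothelial-like and 20 immune-like cells, and the wild-type library 5370 epithelial-like and 10 fibroblast-like cells. Of 15 epithelial markers, 14 were found in at least 25% of p63-KO epithelial-like cells and 15 in as many of the wild-type ones, and 11 of 11 fibroblast markers in p63-KO fibroblast-like cells. Trp63, the targeted gene, had 118 CPM in p63-KO and 303 CPM in wild-type epithelial-like cells, and since the labels do not say where the allele is changed, its 3' ends do not check the genotype. Both libraries held cells with Xist and cells with Y-linked UMIs, so each held more than 1 embryo.

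UMIs were summed over the cells of a class and scaled to the total of the class as CPM, UMIs of a gene per 1000000 UMIs. There is 1 library a group, so no difference was tested and no p-value is given, and all intervals are exact 95% intervals that cover counting error only. A gene counts as detected in a class with at least 1 CPM and at least 10 UMIs there. In a comparison it counts as measured with at least 1 CPM on either side, and as higher or lower where the CPM, with 1 added, differ by at least 2-fold. Folds are printed without the added 1. UMIs from 3' ends do not grow with gene length, and levels of different genes were not divided by it.

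Hox transcripts were detected for 11 genes in p63-KO epithelial-like cells and 12 in wild-type ones, and for 8 in p63-KO fibroblast-like, 8 in p63-KO smooth muscle or pericyte-like and 7 in p63-KO endothelial-like cells. In both epithelia these were genes of paralog groups 1 to 6 of HoxA, HoxB and HoxC. Across these classes 14 genes were detected, among them Hoxa2 to Hoxa5, Hoxb1 to Hoxb5, Hoxc4 to Hoxc6, and Hoxd8. Of the 25 others, 12 had no UMI in any class and 13 had a few, with at most 60 UMIs, for Hoxc8 in wild-type epithelial-like cells. The 16 genes of groups 9 to 13, the high-numbered end, summed to 5 UMIs in p63-KO and 4 UMIs in wild-type epithelial-like cells, and p63-KO fibroblast-like cells had 0. Over all epithelial-like cells, the detected genes thus ended at group 6 in both libraries, with Hoxc8 just under the limit in wild type. By state, Hoxc8 had 16 UMIs and 0.986 CPM in p63-KO cycling cells and 27 UMIs and 1.43 CPM in wild-type cycling cells, where it counted as detected.

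**Figure D1:**
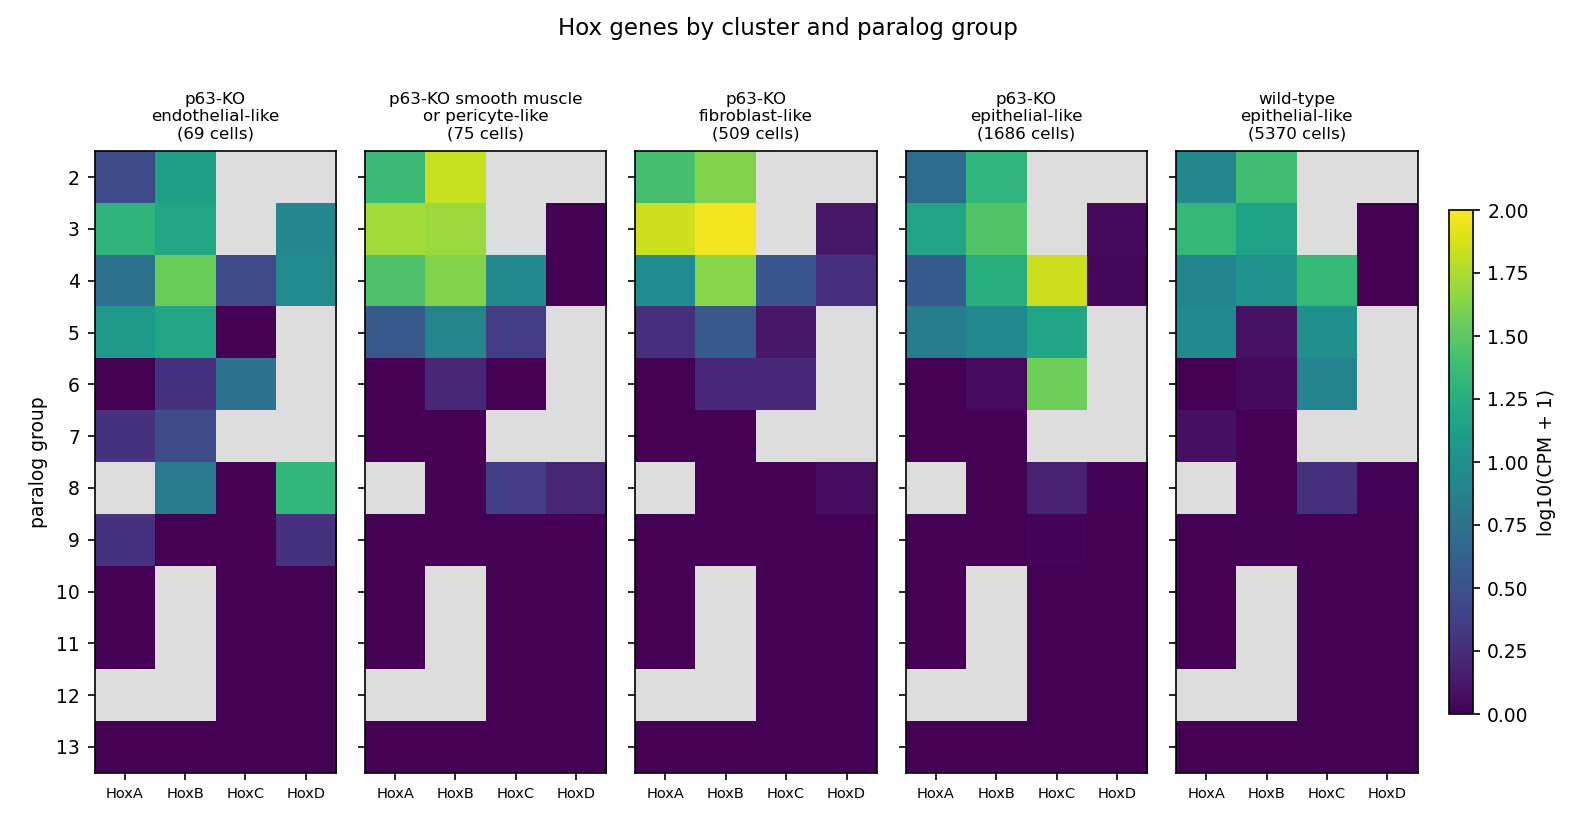
Level of the Hox genes of paralog groups 2 to 13, as log10 of CPM with 1 added, in the p63-KO endothelial-like, smooth muscle or pericyte-like, fibroblast-like and epithelial-like cells and in the wild-type epithelial-like cells, with clusters and paralog groups in order and grey where a cluster has no such gene. Bright colour lies mostly at groups 2 to 6, HoxC is bright in epithelial-like cells of both libraries (119 and 38.0 CPM in p63-KO and wild type) and dark in p63-KO fibroblast-like cells (3.50 CPM), and Hoxd8 stands out in p63-KO endothelial-like cells (20.3 CPM).

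HoxC transcripts set the epithelium apart from the stroma, and the p63-KO epithelium from the wild-type one. Summed over its 9 genes, HoxC reached 119 CPM (117 to 122) in p63-KO epithelial-like cells and 38.0 CPM (36.6 to 39.5) in wild-type ones. In p63-KO fibroblast-like cells it summed to 3.50 CPM (2.14 to 5.41). HoxA and HoxB sums ran the other way between those classes, at 104 and 178 CPM in p63-KO fibroblast-like cells, against 27.2 and 73.0 CPM in p63-KO epithelial-like cells. HoxC UMIs were 54.3% of all Hox UMIs in p63-KO epithelial-like cells, 28.6% in wild-type epithelial-like cells and 1.22% in p63-KO fibroblast-like cells.

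The 3 HoxC genes detected over all epithelial-like cells lie side by side on chromosome 15 (mm10), in a cluster that spans chr15:102921103-103036852. Hoxc4 (ENSMUSG00000075394, chr15:103018934-103036852) and Hoxc6 (ENSMUSG00000001661, chr15:102998257-103011881) flank Hoxc5, whose annotated span overlaps Hoxc6 and the genes beyond it on the same strand, so UMIs may be split unevenly between Hoxc5 and Hoxc6. Retinoic acid, a vitamin A product made in mesenchyme, is a known inducer of low-numbered Hox genes and acts through receptors that read the letters AGGTCA, often as a spaced pair. The letters were searched on both strands in the 150 bases before each start in RefSeq's promoters (GRCm38.p6), which hold 22 of the 39 Hox genes. They were found at Hoxb4, Hoxc4, Hoxd4, Hoxd8 and Hoxd10, and in 8.58% of all 32851 promoters. The windows of the first 4, which have transcripts here, are shown 5' to 3' on the plus strand with the match in capitals (TGACCT is AGGTCA on the other strand), and a match is only a match of letters. They lie at chr11:96318174-96318203 for Hoxb4, chr15:103034237-103034266 for Hoxc4, chr2:74721821-74721850 for Hoxd4 and chr2:74704468-74704497 for Hoxd8.
Hoxb4: tcagcgcccctaTGACCTagtgggtaccca
Hoxc4: ggcgctgccctgTGACCTacacagactgca
Hoxd4: ttgatatgaataTGACCTctctcgcattct
Hoxd8: ttcgctttgataAGGTCAggattcggaggc
The matches end 76, 141, 140 and 130 bases before the start that RefSeq's table uses for Hoxb4, Hoxc4, Hoxd4 and Hoxd8, and each is a single copy of the letters. For Hoxc4 and Hoxd4 the window lies inside the longer annotated gene span, which begins at another, upstream start.

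The first comparison asked how epithelial Hox levels in the p63-KO library stood against the wild type. Hoxb5, Hoxc4 and Hoxc6 were higher in p63-KO epithelial-like cells and 2 genes, among them Hoxa4, were lower, of 13 Hox genes measured. Over all 15238 genes measured, 14.9% were higher and 7.36% lower by the same rule. The median log2 ratio was -0.23 over the 13 Hox genes and 0.0044 over all genes, but it turned to between 0.17 and 0.59 under 5 of 18 other settings. Hox UMIs of all 39 genes summed to 219.9 CPM (216 to 223) in p63-KO and 132.8 CPM (130 to 136) in wild-type epithelial-like cells.

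Hoxc4, a group 4 gene of HoxC, had 69.4 CPM (67.5 to 71.4) in p63-KO and 20.9 CPM (19.9 to 22.0) in wild-type epithelial-like cells, from 5050 and 1433 UMIs, a 3.32-fold difference (3.13 to 3.52). Hoxc6, a group 6 gene used in limb and thorax patterning, had 35.2 CPM (33.9 to 36.6) in p63-KO and 7.03 CPM (6.41 to 7.68) in wild-type cells, a 5.01-fold difference (4.55 to 5.54). Hoxc5, between them, had 14.2 CPM in p63-KO and 9.16 CPM in wild-type cells, which is under the 2-fold rule. All 3 thus lay above the wild type, and for Hoxc4 and Hoxc6 the difference passed 2-fold.

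Hoxb5, which is known for its part in the enteric nervous system, had 571 UMIs and 7.85 CPM (7.22 to 8.52) in p63-KO epithelial-like cells, against 18 UMIs and 0.263 CPM (0.156 to 0.416) in wild-type ones, a 29.8-fold difference (18.7 to 50.7). Its locus (ENSMUSG00000038700, chr11:96303336-96306121) overlaps the antisense gene Hoxb5os. Whether the counting kept strands apart is not given in the sources used here, so UMIs of such pairs are uncertain. Hoxb3 had 27.8 CPM in p63-KO and 13.5 CPM in wild-type cells, a 2.06-fold difference (1.91 to 2.23) whose log2 ratio of 0.99 with 1 CPM added falls just short of the rule. Hoxb4 had 17.0 CPM in p63-KO and 9.61 CPM in wild-type cells, and Hoxb2 19.7 and 23.3 CPM. HoxB summed to 73.0 CPM in all p63-KO epithelial-like cells and to 45.3 CPM in those outside the neuroendocrine-like states, against 48.0 CPM in wild-type epithelial-like cells. Hoxb2 turned direction with the setting, with log2 ratios from -0.82 to 0.83, and kept its sign under 13 of 18.

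HoxA levels were lower in the p63-KO epithelium than in the wild type, with a sum of 27.2 CPM in p63-KO and 46.7 CPM in wild-type epithelial-like cells. Hoxa4 had 2.78 CPM (2.41 to 3.19) in p63-KO and 6.94 CPM (6.33 to 7.59) in wild-type cells, 2.50-fold lower (2.11 to 2.96). Hoxa2, a regulator of the pharyngeal arches, had 4.12 CPM in p63-KO and 7.63 CPM in wild-type cells. Hoxa3 (ENSMUSG00000079560, chr6:52169062-52213336), needed for thymus and parathyroid, had 13.9 CPM in p63-KO and 20.6 CPM in wild-type cells. Hoxa5, known for its part in lung and trachea, had 6.02 CPM in p63-KO and 8.05 CPM in wild-type cells, and its direction turned under 3 of 18 other settings, with log2 ratios from -1.05 to 0.40. The annotated span of Hoxa3 takes in Hoxa4, Hoxa5 and Hoxa6 on the same strand, so these counts may be shared. Hoxb1, the group 1 gene of HoxB, had 0.412 CPM in p63-KO and 1.24 CPM in wild-type cells. Groups 1 to 3 together held 30.2% of Hox UMIs in p63-KO and 52.4% in wild-type epithelial-like cells, and groups 4 to 6 held 69.5% and 46.7%.

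**Figure D2:**
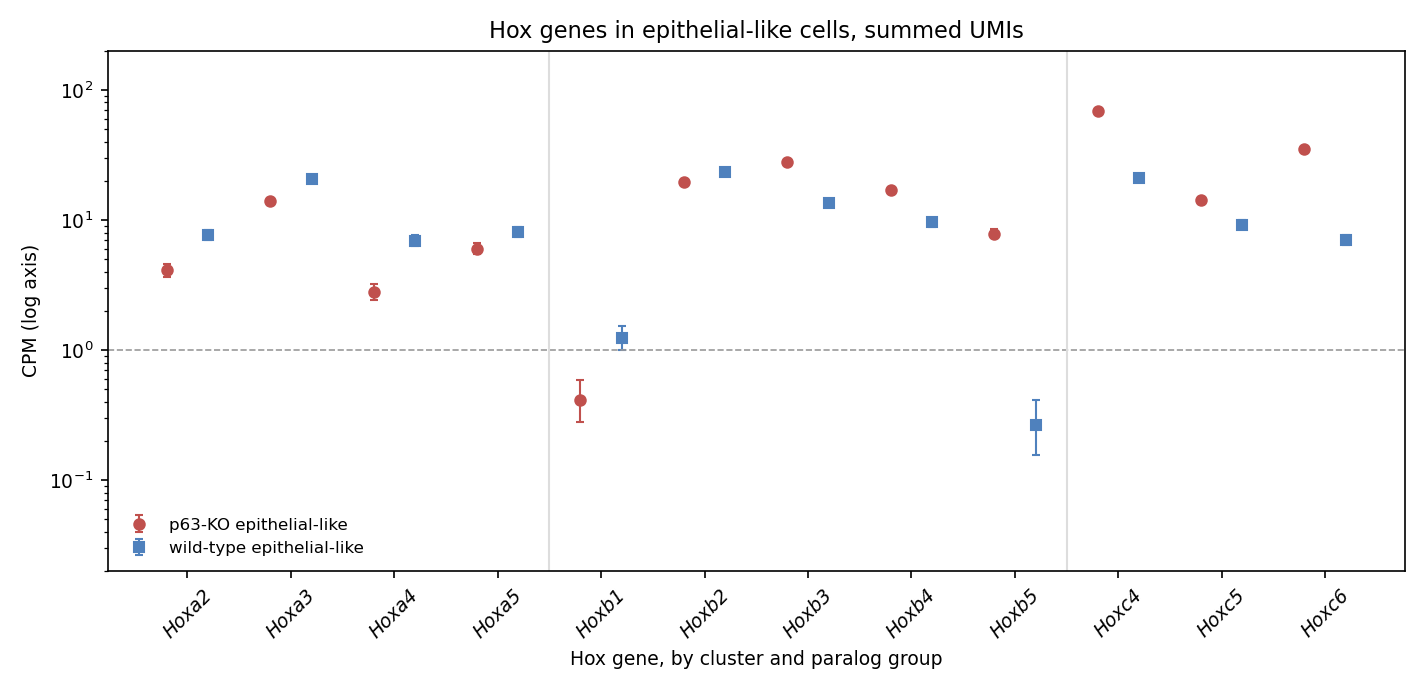
CPM (log axis) of Hox genes detected in either epithelium, p63-KO beside wild type, with points for the summed cells, lines for exact 95% Poisson intervals and a dashed line at 1 CPM. The HoxC points lie higher in p63-KO (Hoxc4 69.4 against 20.9 CPM), those of Hoxa4 lie lower (2.78 against 6.94 CPM), and Hoxb5 is above 1 CPM in p63-KO only.

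Depth differed between the libraries, with medians of 25356 UMIs per p63-KO and 11057.5 UMIs per wild-type epithelial-like cell, so shares of cells were also read after each cell was drawn down to 2000 UMIs. At full depth, Hoxc4 was seen in 74.7% of p63-KO and 21.7% of wild-type epithelial-like cells, and in 2.75% of p63-KO fibroblast-like cells at a median of 10824 UMIs. At equal depth it was seen in 12.1% (10.6 to 13.8) of 1663 p63-KO and 4.43% (3.89 to 5.02) of 5283 wild-type epithelial-like cells, and in 0 of 507 p63-KO fibroblast-like cells, which allows a share of up to 0.592% by a floor of 3 counts and 0.725% by the exact interval. Drawing down left out 23 p63-KO and 87 wild-type epithelial-like cells. Hoxb5 was seen in 2.95% of p63-KO epithelial-like cells at equal depth and in 0 of 5283 wild-type ones, which allows up to 0.0568% by the same floor and 0.0698% by the exact interval. The difference in Hoxc4 and Hoxb5 was thus present at equal depth too.

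The libraries also differ in which epithelial states they hold, so the genes were read by state. The p63-KO epithelium fell into 9 states: neuroendocrine-like (2 states, 344 cells), ionocyte-like (2 states), mucous secretory-like, suprabasal-like, ciliated-like, a cycling state whose leading genes include the neutrophil genes S100a9, S100a8 and Ngp, and 1 unnamed state of 381 cells with hemoglobin genes among its leading genes. The wild-type epithelium also gave 9: 2 suprabasal-like, 3 cycling, 1 basal-like, 1 ciliated-like and 2 unnamed. Hoxc4 ran from 43.3 to 75.7 CPM over the 9 p63-KO states and from 9.65 to 39.2 CPM over the 9 wild-type states. The lowest p63-KO state thus lay above the highest wild-type state for Hoxc4, and likewise for Hoxc6, at 16.3 to 51.9 CPM in p63-KO and 0.675 to 12.1 CPM in wild-type states. Hoxc5 ranges overlapped, at 8.88 to 24.1 CPM in p63-KO and 2.68 to 16.6 CPM in wild-type states. In wild-type states the HoxC sum was highest in 2 of the cycling states, at 63.7 and 66.4 CPM, and lowest in a suprabasal-like state, at 16.6 CPM. The basal-like state, the progenitor layer, for which no p63-KO state was named, had 14.6 CPM of Hoxc4 and only 3 UMIs of Hoxc6.

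States that carry the same name in both libraries were compared with each other. In cells named suprabasal-like for markers of differentiated squamous layers, Hoxc4 had 71.9 CPM in p63-KO and 11.6 CPM in wild type, a 6.21-fold difference. The p63-KO state carried the name on 5 of these markers and the wild-type ones on 11 and 4. Hoxc6 had 38.1 CPM in p63-KO and 4.90 CPM in wild-type suprabasal-like cells, and Hoxc5 14.7 and 3.46 CPM. All 3 HoxC genes were higher there, 3 of 12 Hox genes measured (12.8% of all genes), while 5, among them Hoxa3, Hoxa5, Hoxb1 and Hoxb2, were lower (7.95% of all genes). In cycling cells Hoxc4 had 73.1 CPM in p63-KO and 31.5 CPM in wild type, and Hoxc6 37.3 and 9.60 CPM. These were the 2 Hox genes higher of 12 measured in cycling cells (14.3% of all genes), and 4, among them Hoxa2, Hoxa4 and Hoxa5, were lower (12.3% of all genes). In ciliated-like cells, of which there were 58 in p63-KO and 26 in wild type, Hoxc4 had 51.2 CPM in p63-KO and 9.65 CPM in wild type, a 5.30-fold difference (2.52 to 13.4). There 6 of 13 Hox genes measured were higher (15.7% of all genes), namely Hoxa4, Hoxa5, Hoxc4, Hoxc5, Hoxc6 and Hoxd8, and Hoxb1 was lower (12.9% of all genes). Hoxc4 and Hoxc6 were thus higher and no HoxC gene lower in all 3 states matched by name. For suprabasal-like and cycling cells the match is one of marker names only. In the joint clustering, wild-type squamous clusters led by Krtdap, Serpinb3a and Cnfn held 0, 0 and 4 p63-KO cells. Wild-type epithelial-like cycling clusters led by Rrm2, Ube2c and Cenpa held 0 p63-KO cells. The p63-KO cycling cluster led by S100a9 held 0 wild-type cells. A shared ciliated cluster held 57 p63-KO and 31 wild-type cells. The wild-type ciliated-like cells had 1 UMI of Hoxa4 and 2 UMIs of Hoxa5, too few to read a direction for these genes.

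**Figure D3:**
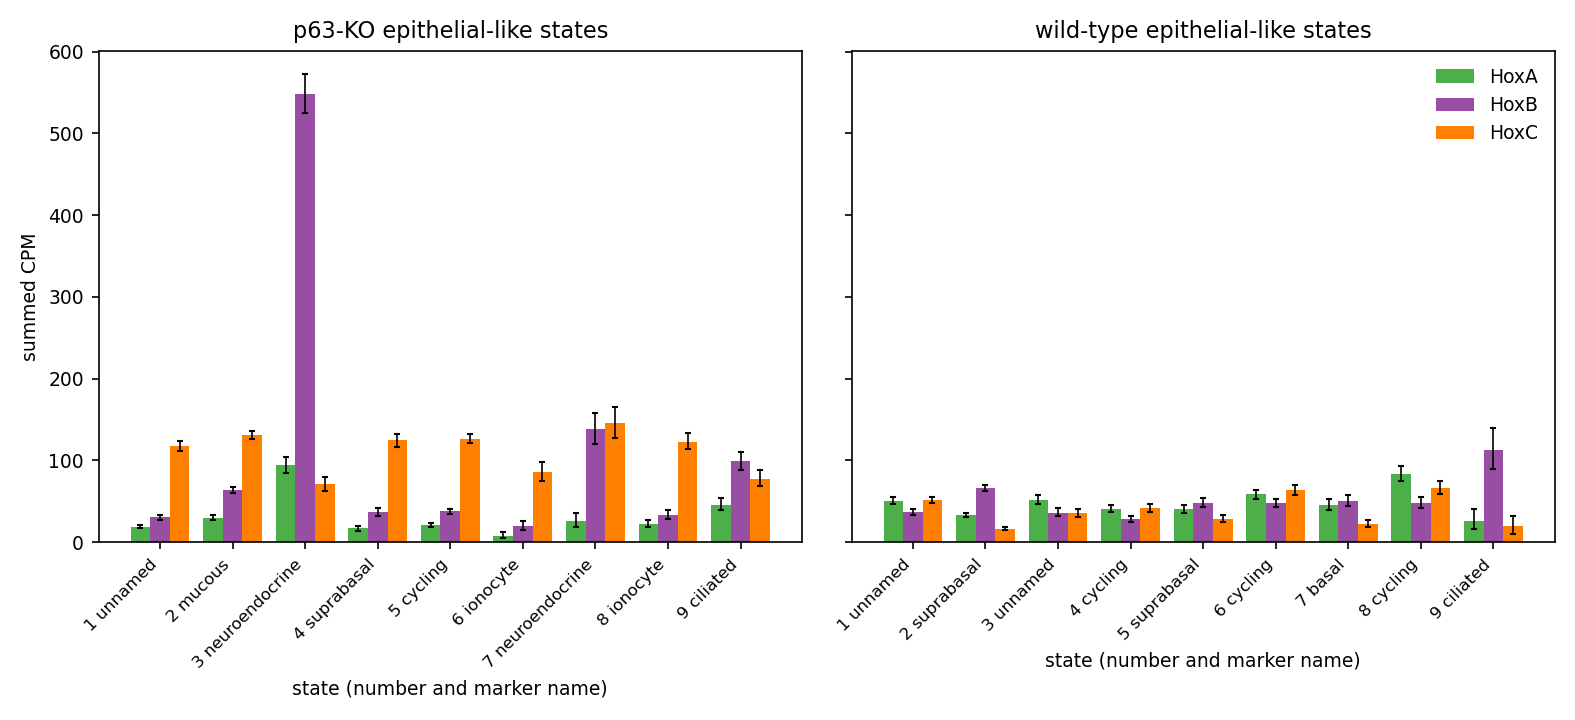
Summed CPM of the HoxA, HoxB and HoxC genes in each epithelial state, the 9 p63-KO states in the left panel and the 9 wild-type states in the right panel, as bars from 0. HoxC is above 70 CPM in each p63-KO state and below 70 CPM in each wild-type state. The nearest p63-KO and wild-type states, at 70.7 (62.4 to 79.8) and 66.4 CPM (58.8 to 74.6), overlap within counting error. HoxB reaches 548 and 138 CPM in the 2 p63-KO neuroendocrine-like states.

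Neuroendocrine-like cells, hormone-secreting cells led here by Chgb, Scg2 and Sst, carried most of the epithelial Hoxb5. They were 20.4% of p63-KO epithelial-like cells and held 7.28% of their UMIs, but 85.8% (82.7 to 88.6) of their Hoxb5 UMIs and 42.5% of their HoxB UMIs, against 5.67% of their HoxC UMIs. Their HoxB genes summed to 426 CPM, against 45.3 CPM in the other p63-KO epithelial-like cells. Their HoxC genes summed to 93.1 CPM, against 121.5 CPM in the others. By state the HoxC sum was 70.7 CPM (62.4 to 79.8) in the neuroendocrine-like state led by Chgb. In the state led by Cnpy1 it was 146 CPM (127 to 166), so the lower pooled sum came from the state led by Chgb. No wild-type state was named neuroendocrine-like, so this state has no wild-type value.

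Within HoxB the neuroendocrine-like difference covered groups 2 to 5. Hoxb5 had 92.5 CPM in neuroendocrine-like cells and 1.20 CPM in the other p63-KO epithelial-like cells, a 77.0-fold difference (60.8 to 98.7). Hoxb4 had 88.0 CPM in neuroendocrine-like and 11.5 CPM in the other cells, a 7.68-fold difference. Hoxb3 had 136 CPM in neuroendocrine-like and 19.4 CPM in the other cells, and Hoxb2 109 and 12.8 CPM. Hoxa5 had 27.0 CPM in neuroendocrine-like and 4.37 CPM in the other cells, a 6.17-fold difference. In all, 8 of 12 Hox genes measured were higher in neuroendocrine-like cells (22.6% of all genes), with Hoxa2, Hoxa4 and Hoxd3 as the remaining ones, and 0 were lower (14.1% of all genes), so Hoxc4, at 51.2 against 70.8 CPM, counted as neither. The median log2 ratio was 1.54 over these Hox genes and 0.18 over all genes. The 2 neuroendocrine-like states differed from each other: Hoxb5 had 122 CPM in the state led by Chgb and 24.1 CPM in the state led by Cnpy1, and Hoxb3 had 177 and 38.6 CPM.

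Genes on the neuron marker list moved with these Hox genes, and neurons of the gut wall are known to express HoxB genes. The 8 markers summed to 1909 CPM in neuroendocrine-like cells and 24.1 CPM in the other p63-KO epithelial-like cells, and 5 of 8 were found in at least 25% of neuroendocrine-like cells. Snap25, which acts in vesicle release, gave the largest part, at 962 against 11.01 CPM, and the RNA-binding gene Elavl4 had 298 against 3.07 CPM. Snap25 was seen in 89.2%, Elavl4 in 84.6%, Tubb3 in 68.9%, Ret in 67.2% and Stmn2 in 54.9% of neuroendocrine-like cells, and Prph, the gene of a filament of peripheral neurons, in 3.20%. The part of neuron RNA in the HoxB level was not tested. At full depth Hoxb5 was seen in 34.3% of neuroendocrine-like cells at a median of 14492.5 UMIs, and in 3.20% of the other p63-KO epithelial-like cells at a median of 35748.5 UMIs.

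Without the neuroendocrine-like states, p63-KO epithelial-like cells had 1.20 CPM of Hoxb5, still above the wild type but no longer higher by the rule. Its log2 ratio was 0.80 with 1 CPM added, and at levels this low the added 1 shrinks the ratio. Hoxc4 had 70.8 CPM in these 1342 p63-KO cells and Hoxc6 35.8 CPM, against 20.9 and 7.03 CPM in wild-type epithelial-like cells. These 2 genes were the ones higher (12.4% of all genes), and 3, among them Hoxa2 and Hoxa4, were lower (8.08% of all genes), of 13 measured. The median log2 ratio was -0.62 over these Hox genes and -0.05 over all genes. Hoxb5 thus passed the rule only with the neuroendocrine-like cells, while Hoxc4 and Hoxc6 passed it without them.

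The second comparison set stroma beside epithelium within the p63-KO library. All 11 Hox genes measured passed the rule between p63-KO fibroblast-like and p63-KO epithelial-like cells: 6 were higher in fibroblast-like cells (19% of all genes) and 5 lower (21.1% of all genes). The higher ones were Hoxa2, Hoxa3, Hoxa4, Hoxb2, Hoxb3 and Hoxb4, of groups 2 to 4 of HoxA and HoxB. The lower ones were Hoxa5, Hoxb5, Hoxc4, Hoxc5 and Hoxc6, of groups 5 and 6 or of HoxC. Groups 1 to 3 held 79.0% of Hox UMIs in fibroblast-like cells and 30.2% in epithelial-like cells.

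Hoxa3 had 70.0 CPM (63.3 to 77.2) in fibroblast-like and 13.9 CPM in epithelial-like cells of the p63-KO library, a 5.04-fold difference. Hoxa2 had 24.7 CPM in fibroblast-like and 4.12 CPM in epithelial-like cells, a 5.98-fold difference (4.86 to 7.33). Hoxb3 had 90.7 CPM in fibroblast-like and 27.8 CPM in epithelial-like cells, a 3.26-fold difference. All 3 lay 3-fold or more above the epithelial level. Hoxb4 had 43.4 CPM in fibroblast-like and 17.0 CPM in epithelial-like cells, Hoxa4 8.23 and 2.78 CPM, and Hoxb2 40.6 and 19.7 CPM, with Hoxb2 at 2.06-fold and a log2 ratio of 1.004, just inside the rule.

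On the lower side, Hoxc4 had 14 UMIs and 2.45 CPM (1.34 to 4.11) in fibroblast-like cells, against 69.4 CPM in epithelial-like cells, 28.3-fold lower (16.9 to 51.9). Hoxc6 had 4 UMIs and 0.700 CPM in fibroblast-like cells, against 35.2 CPM in epithelial-like cells, 50.3-fold lower (19.6 to 185). Hoxc5 had 2 UMIs and 0.350 CPM in fibroblast-like cells, against 14.2 CPM in epithelial-like cells, and the epithelial over the fibroblast level was 40.6 (11.2 to 336). The HoxC genes were thus near the floor in fibroblast-like cells. Hoxa5 had 0.875 CPM in fibroblast-like and 6.02 CPM in epithelial-like cells, 6.88-fold lower. Hoxb5 had 2.63 CPM in fibroblast-like and 7.85 CPM in epithelial-like cells, 2.99-fold lower, but the epithelial level without the neuroendocrine-like states was 1.20 CPM, below that of the fibroblast-like cells.

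RNA passing between classes was read from genes that should mark 1 class. The 14 epithelial markers measured in p63-KO fibroblast-like cells stood there at 0.819% to 2.72% of their epithelial level, with a median of 1.51%. Hoxc4 stood at 3.53%, Hoxc5 at 2.46% and Hoxc6 at 1.99%, so the last 2 lay within the range of background. Hoxc4 lay a little above it, but the counting interval of its fibroblast level reaches into that range. In the other direction, the 11 fibroblast markers stood in p63-KO epithelial-like cells at 0.230% to 8.06% of their fibroblast level. Hoxa2 stood at 16.7%, Hoxa3 at 19.8%, Hoxb3 at 30.7%, Hoxb4 at 39.2% and Hoxb2 at 48.6%, all above that range. Of the fibroblast-like cells, 475 held Xist and no Y-linked UMIs and 17 the reverse, so the class came mostly from female embryos. Within Xist cells Hoxc4 had 2.45 CPM in fibroblast-like and 71.6 CPM in epithelial-like cells, and Hoxa3 73.0 and 14.1 CPM, so both differences were present within 1 sex.

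**Figure D4:**
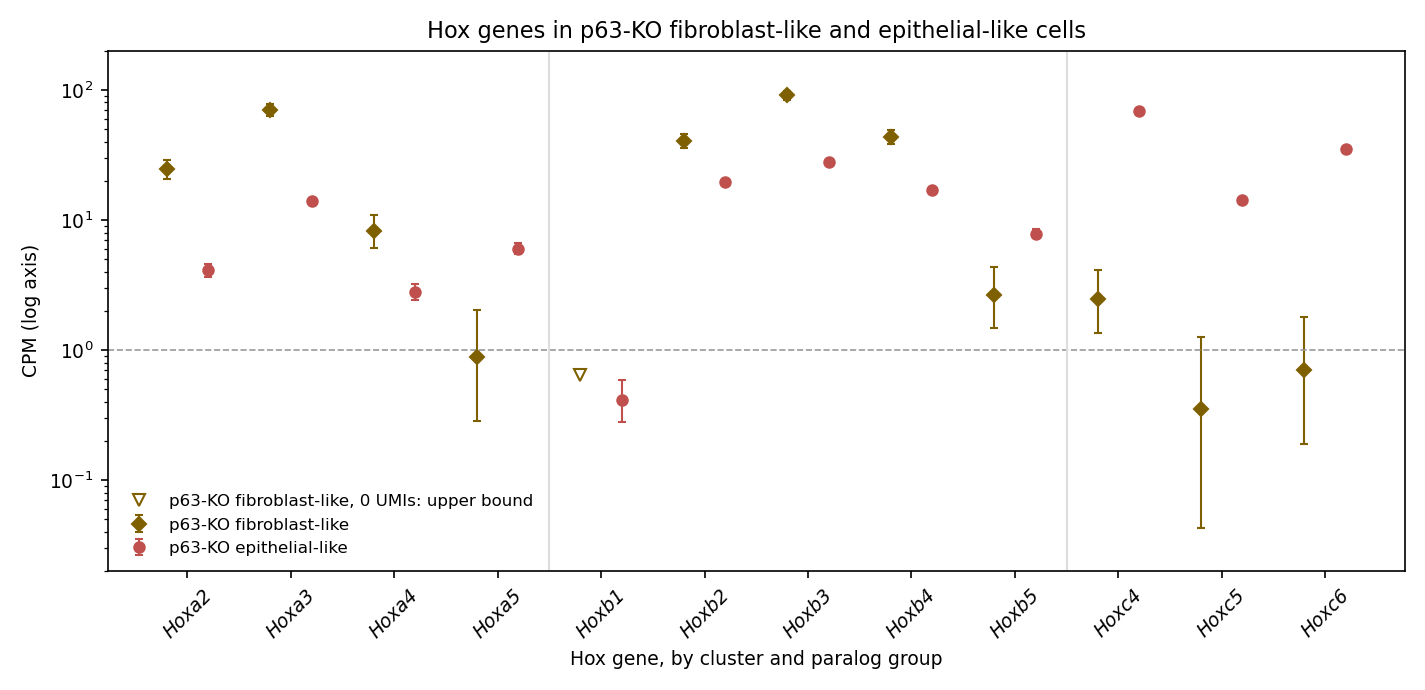
CPM (log axis) of Hox genes in the p63-KO fibroblast-like cells beside the p63-KO epithelial-like cells, with exact 95% Poisson intervals, a dashed line at 1 CPM and a triangle for the upper bound where no UMI was seen. Hoxa2 to Hoxa4 and Hoxb2 to Hoxb4 lie higher in fibroblast-like cells, and Hoxa5, Hoxb5 and Hoxc4 to Hoxc6 lie lower (Hoxc4 2.45 against 69.4 CPM).

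Fibroblast-like cells fell into 5 subclusters of 150, 137, 112, 73 and 37 cells, led by Esr1, by Nrxn3 and Kit, by Sgcz and Bmp6, by Prdm6 and Lgr5, and by the cycling gene Top2a. Hoxa3 had 70.2, 69.0, 40.6, 134 and 60.2 CPM in them in that order. HoxB summed to 156, 188, 157, 242 and 186 CPM, and HoxC to 4.20, 3.28, 3.18, 0 and 6.88 CPM. The subcluster led by Prdm6 and Lgr5 was thus the highest for HoxA and HoxB and had no HoxC UMI, and no subcluster came near the epithelial HoxC sum.

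Smooth muscle or pericyte-like cells of the p63-KO library, 75 in all, had the same 8 Hox genes detected as the fibroblast-like cells. Against p63-KO epithelial-like cells, Hoxa2, Hoxa3, Hoxa4, Hoxb2 and Hoxb4 were higher, 5 of 12 measured (18.8% of all genes), and Hoxc4, Hoxc5 and Hoxc6 lower (20.3% of all genes). Hoxa4 had 26.8 CPM (19.2 to 36.4) in smooth muscle or pericyte-like and 2.78 CPM in epithelial-like cells, and Hoxb2 66.7 and 19.7 CPM. Hoxc6 had 0 UMIs in smooth muscle or pericyte-like cells, which with a floor of 3 counts over the class makes it at least 17.9-fold lower. The class joins 51 cells led by the smooth muscle genes Actg2 and Myh11 and 24 led by the pericyte genes Rgs5 and Abcc9. Hoxb2 had 50.5 CPM in the muscle cluster and 127 CPM in the pericyte cluster, and Hoxb5 3.31 and 21.7 CPM.

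Endothelial-like cells, 69 in the p63-KO library, were the class with HoxD transcripts. HoxD summed to 36.8 CPM in p63-KO endothelial-like cells, against 0.220 CPM in p63-KO epithelial-like cells and 1.40 CPM in p63-KO fibroblast-like cells. Hoxd8 (ENSMUSG00000027102, chr2:74704615-74707933) had 22 UMIs and 20.3 CPM (12.7 to 30.7) in endothelial-like cells, against 0.0550 CPM in epithelial-like cells. It was seen in 24.6% (15.1 to 36.5) of endothelial-like cells at a median of 11131 UMIs, and in 0.178% of epithelial-like cells at 25356. Hoxd8 overlaps the antisense gene Hoxd3os1, whose UMIs could be counted with it. Hoxd4 had 9 UMIs, Hoxd3 8 UMIs and Hoxb8 6 UMIs in endothelial-like cells, too few to count as detected. Of 17 Hox genes measured, 6 were higher in endothelial-like than in epithelial-like cells (19.3% of all genes), among them Hoxb7, Hoxb8, Hoxd3, Hoxd4 and Hoxd8, and Hoxc4, Hoxc5 and Hoxc6 were lower (26.4% of all genes). A single UMI is 0.921 CPM in this class, and several of the 6 count as measured through it alone, on as few as 2 UMIs for Hoxb7, so their number is a description of the filter as well. Groups 7 and 8 held 16.8% of Hox UMIs in endothelial-like cells, against 0.269% in p63-KO epithelial-like, 0.858% in wild-type epithelial-like and 0.0609% in p63-KO fibroblast-like cells.

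Genes that work with or on the Hox genes were read from lists. Of 11 cofactors of the TALE class, homeodomain partners that bind DNA with Hox proteins, 2 were higher and 1 lower in p63-KO than in wild-type epithelial-like cells, and their median log2 ratio was 0.05. The shares over all genes, 14.9% higher and 7.36% lower, apply to each list read between the epithelia. Meis1 had 537 CPM in p63-KO and 194 CPM in wild-type cells, Pknox2 2.27 and 0.599 CPM, and Pbx3 150 and 334 CPM, while Tgif2, at 15.9 and 30.4 CPM, did not pass the rule. Of 21 Polycomb and Trithorax genes, which keep Hox genes silent or active, none passed the rule (0 higher, 0 lower), and their median log2 ratio was -0.08. Among them Ezh2, the Polycomb methyltransferase, had 61.7 CPM in p63-KO and 123 CPM in wild-type cells, just short of the rule, and Cbx7 had 7.75 and 4.499 CPM. Of 16 noncoding and antisense genes of the Hox clusters, 10 had an entry and 4 were measured, 0 of them higher and 2 lower (14.9% and 7.36% of all genes), and their median log2 ratio was -0.71. Hotairm1 had 22.6 CPM in p63-KO and 51.0 CPM in wild-type cells, and Hoxaas2, within the Hoxa3 span, had 2.45 and 6.00 CPM, so the HoxA antisense genes stood on the same side as Hoxa4.

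Retinoid genes were read because retinoic acid acts on Hox genes. Of 18, 14 were measured, of which 3 were higher and 5 lower in p63-KO than in wild-type epithelial-like cells (14.9% and 7.36% of all genes), and the median log2 ratio was 0.04. Rdh10 and Aldh1a1, enzymes that make retinoic acid, had 120 and 36.0 CPM in p63-KO cells, against 9.69 and 2.16 CPM in wild-type cells. Cyp26a1, which breaks it down, had 0.179 CPM in p63-KO and 8.84 CPM in wild-type cells, and Rarb, a receptor, 31.7 and 175 CPM. The other synthesis enzymes of the list, Aldh1a2, at 1.62 CPM in p63-KO and 1.40 CPM in wild-type cells, and Aldh1a3, at 4.26 and 3.13 CPM, did not pass the rule. A link between these genes and the HoxC genes was not tested.

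Other position genes were set beside the Hox genes. Of 6 ParaHox and caudal genes, some of which mark the intestine and pancreas, 0 were measured in either epithelium. Cdx2 had 0.0412 CPM in p63-KO and 0 in wild-type epithelial-like cells. Of 21 epithelial transcription factors of gut levels, 15 were measured, 3 higher and 3 lower in p63-KO than in wild-type epithelial-like cells (14.9% and 7.36% of all genes), and the median log2 ratio was -0.16. Foxe1, a foregut and thyroid factor, had 8.98 CPM in p63-KO and 163 CPM in wild-type cells, Pax1 0.0137 and 4.40 CPM, Tbx1 3.74 and 23.5 CPM, and Foxa2 50.2 and 13.6 CPM. Of 20 stromal factors of gut levels, 14 were measured between p63-KO fibroblast-like and epithelial-like cells, 11 higher and 2 lower (19% and 21.1% of all genes), and the median log2 ratio was 3.71. The highest levels in p63-KO fibroblast-like cells were those of Osr1, at 132 CPM, Zfhx3, at 114 CPM but lower there than in epithelial-like cells with 365 CPM, Foxf1, at 112 CPM, and Nkx6-1, at 83.5 CPM.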

How the data were processed

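Single-cell RNA-seq of 1 p63-KO and 1 wild-type library was read. The authors deposited raw counts, the whole numbers of UMIs of each gene in each barcode, and nothing shows that the authors normalized them. The submitters' processing notes name Cell Ranger 7.1.0 and mm10. The labels name a 10x Genomics 3' kit. The annotation release, and whether introns and both strands were counted, is not given in the sources used here. Gene coordinates are those of GENCODE M21 on mm10.

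From 2821 p63-KO and 6034 wild-type barcodes, with 86504624 and 76472445 UMIs, cells were kept from 500 genes, from 1000 UMIs and up to 10% of UMIs from mitochondrial genes (2422 and 5787). Doublets were scored against simulated pairs and removed at 0.8% per 1000 cells, 47 and 268. All cells were clustered together on log-normalized values, on 2000 variable genes without Hox genes, 30 principal components, 20 neighbours and Leiden resolution 1, and epithelial-like cells again within each library at 0.6. A class needed at least 3 of its markers in at least 25% of cells. A joint cluster of low depth with no marker of its class among its leading genes stayed unnamed. A state needed 3 or more markers in at least 25% of cells, at 2-fold or more their level in the library's other states. Leading genes played no part in naming states, and a state that met no marker list stayed unnamed. Python 3.11.15, numpy 2.4.6, scipy 1.17.1, scikit-learn 1.9.0, leidenalg 0.10.2 and igraph 0.11.9 were used. The scripts were checked on simulated data. In that check planted doublets were recovered only in part, so some doublets remain among the kept cells.

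Values are given for every Hox gene detected in an epithelial-like or p63-KO stromal class, and the others by counts, except for items that are not reported here. From each list up to 4 genes with the largest log2 ratio, or for the stromal list the highest level, are named. Members, lists and tests were chosen with earlier results of these data known. Intervals are exact Poisson for CPM, conditional binomial for folds and Clopper-Pearson for shares. Sequences come from RefSeq's promoter table.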

Additional observations from a re-analysis of the deposited data

How the results depend on the processing

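Every count, sum, median and named ratio was recomputed under 18 other settings, 17 planned and 1, without the neuroendocrine-like states, chosen after seeing the data. Under 18 of 18, Hoxc4 and Hoxc6 stayed 2-fold or more above wild type in p63-KO epithelial-like cells, with log2 ratios of 1.30 to 1.95 and 1.74 to 2.38. Hoxa4 was lower under 13 and Hoxb5 higher under 17, the exception being without neuroendocrine-like cells (log2 ratio 0.80). Hoxb3 passed 2-fold under 8 and Hoxb4 under 5. Between p63-KO fibroblast-like and epithelial-like cells, Hoxc4, Hoxc5 and Hoxc6 stayed lower and Hoxa2 and Hoxa3 higher under all 17 settings run. In the lines that follow, sums are Hox CPM and medians are log2 ratios. The state ratio is the log2 ratio of HoxB sums, p63-KO neuroendocrine-like over other p63-KO epithelial-like cells. It was 3.20 under the main settings.

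With cells thinned, 5 Hox genes were detected in fibroblast-like cells, the sums were 276.0 in p63-KO and 137.9 in wild-type epithelial-like cells, 5 genes were higher in p63-KO with a median of 0.40, and the fibroblast-like over epithelial-like median was 0.32. At 5% mitochondrial UMIs the p63-KO sum was 244.6, the medians 0.17 and 0.62, with 5 higher and 1 lower. Another rule took as epithelial the cells outside the fibroblast-like class with an Epcam or Cdh1 UMI. It also allowed at most 1 UMI over Col1a1, Col1a2, Col3a1, Pecam1 and Ptprc together. It kept 750 p63-KO and 5305 wild-type cells, against 1686 and 5370 under the main settings. With it the p63-KO sum was 311.4 and the median 0.59, with 5 higher and 1 lower. The fibroblast-like median turned to -0.063 with 2 higher, and the state ratio was 3.71. That rule also turned Hoxb2 in fibroblast-like over epithelial-like cells to -0.063, and leaving out neuroendocrine-like cells turned Hoxb5 there to 0.72. With each cell weighted equally, the p63-KO sum was 276.5, the medians 0.51 and 0.23, with 5 higher and 1 lower, and the state ratio 3.46. Without the 50 highest genes the sums were 271.1 in p63-KO and 167.2 in wild-type epithelial-like cells and 324.0 in fibroblast-like cells, and the state ratio 3.08. Cells with Xist alone gave sums of 238.8 in p63-KO and 136.2 in wild type and a state ratio of 3.04. Cells with Y-linked UMIs alone gave sums of 215.8 and 124.0, 5 higher, 4 lower and a state ratio of 4.02, and were not run for fibroblast-like cells, of which 17 remained. Without neuroendocrine-like cells the p63-KO sum was 190.4 and the medians -0.62 and 1.41. Without cycling clusters the wild-type sum was 124.8, with 1 lower. Counting genes from 5 CPM gave a median of 0.58 with 1 lower, and from 0.2 CPM a fibroblast-like median of 0.30. Adding 5 CPM left 0 lower, a fibroblast-like median of 0.77 with 3 lower, and a state ratio of 3.10. Keeping doublets gave a state ratio of 2.87 and resolution 2 one of 3.37. The remaining 178 values of the counts, sums, medians and state ratio stayed within the bounds set for them. Of the named gene ratios over all settings, 393 stayed within bounds, 95 moved out, and 2 of at least 2-fold turned direction. Not all of the 95 are listed here, and the causes of the shifts were not tested.

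No paired analysis was possible because each group has 1 library. At this depth 1 UMI is 0.0137 CPM in p63-KO epithelial-like cells but 0.921 CPM in endothelial-like cells, so low Hox genes cannot be read as absent in the small classes.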

Other observations

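Halr1, a long noncoding gene beside the HoxA cluster that was chosen after its values were seen, had 1.65 CPM in p63-KO and 40.9 CPM in wild-type epithelial-like cells, 24.8-fold lower, which is a larger difference than that of any Hox gene lower in p63-KO. In fibroblast-like cells of the p63-KO library it had 0 UMIs.

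Aldh1a2, the retinoic acid enzyme of mesenchyme, had 302 CPM in p63-KO fibroblast-like cells and 1.62 CPM in p63-KO epithelial-like cells. Hoxa5 had 8.33 CPM in p63-KO epithelial-like cells with Xist alone and 2.39 CPM in those with Y-linked UMIs alone, against 9.20 and 6.01 CPM in the wild-type cells of the same kinds, while Hoxc4 had 71.6 and 57.1 CPM in these p63-KO cells and 20.9 and 22.6 CPM in the wild-type cells.

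The 10 wild-type fibroblast-like cells held 9 Hox genes with a UMI, with 7 UMIs each of Hoxa3 and Hoxb3, 6 of Hoxb2 and 2 of Hoxc4, too few for a comparison with the p63-KO fibroblast-like cells.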
